A study of Rattus norvegicus with 3 samples.

Results

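Genes of the Wnt pathway were described in the parotid, submandibular and sublingual glands of the rat: ligands, receptors, antagonists and the intracellular parts named by the selection rule. The probes were taken by name. A probe was included where its gene name, without a suffix marking it as predicted or mapped, began with Wnt, Fzd, Dkk, Sfrp, Rspo, Axin or Dvl and a digit, or was Wif1, Frzb, Lrp5, Lrp6, Lgr4, Lgr5, Lgr6, Ctnnb1, Tcf7, Lef1, Tcf7l1 or Tcf7l2. The rule gave 46 genes with 59 probes, of 15986 genes and 41012 probes in all. It used no measured value, but it was chosen with earlier results of these data known. The animals were male rats of the Wistar strain at 10 weeks of age, with no treatment named. Total RNA of each gland type was measured on 1 Agilent array with the dye Cy3. According to the design text 3 rats were used, and the labels leave unsaid whether an array holds RNA of 1 of them or of several. With 3 arrays and no replicates no test was made, and the small number of arrays bounds the precision. The arrays are written PG (parotid gland), SMG-labelled (submandibular gland) and SLG (sublingual gland).

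Wnt proteins are secreted, lipid-modified signals that bind Frizzled receptors together with the co-receptors Lrp5 and Lrp6. In the beta-catenin branch, Dishevelled proteins carry the signal to a complex built on Axin, beta-catenin escapes destruction, and it acts with TCF and LEF factors in the nucleus. R-spondins bind Lgr receptors and keep Frizzled receptors at the cell surface, while secreted Frizzled-related proteins, Wif1 and Dickkopf proteins restrain the signal outside the cell. In salivary glands the pathway is known for its part in the formation of branches and ducts before birth.

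A level here is the log2 signal minus the array's 75th percentile over probes, so 0 is the 75th percentile. A gene with several probes is represented by its brightest one. A probe that the scanner software did not flag as well above background has no order against others there. Where only 1 side of a comparison could be read, the fold is the smallest that the dim side allows, written as "at least" with 3 digits. The arrays shared 1 slide and 1 scan, which makes each gland also a slide position that cannot be told apart from it, no spot was saturated, and 63.2% to 64.9% of all genes were well above background. The SMG-labelled array is called by its label because none of 6 granular duct products, which mark the submandibular gland of male rats, reached 2-fold above PG on it. Summed levels of the mucous markers were 26.1 on PG, 1727 on SMG-labelled and 1711 on SLG (linear, relative to the 75th percentile), and those of 8 serous markers 6957, 20.7 and 20.9. The software's error of a spot covers neither animals nor dissection nor labelling, and for the readings of member genes well above background it ran from 0.14 to 0.32 on the log2 scale (median 0.16, 70 readings).

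The files hold no probe sequences, so the upstream sequences of a few genes are shown from RefSeq (build GRCr8), in which 33 of the 46 genes had an entry. The TCF and LEF motif was searched as CTTTG followed by AA, AT, TA or TT, on both strands, in the 250 bases before each start site, and capitals mark the matches. A match was found in 14.9% of 33469 such windows and in 4 of the 33 member windows (12.1%). Wnt9b is shown as the member furthest above the PG level and Sfrp5 as the one furthest below it among members read on every array (Fzd9 and Sfrp4 have only bounds on an array), and Axin2 and Dkk1 because both are textbook feedback genes of the pathway.
Wnt9b (chr10:89157066-89157315, minus strand): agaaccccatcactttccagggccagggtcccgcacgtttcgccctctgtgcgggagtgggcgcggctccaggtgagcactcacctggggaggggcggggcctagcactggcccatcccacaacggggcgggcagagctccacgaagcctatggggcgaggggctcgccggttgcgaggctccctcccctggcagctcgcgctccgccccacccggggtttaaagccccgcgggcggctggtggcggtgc
Sfrp5 (chr1:250960513-250960762, minus strand): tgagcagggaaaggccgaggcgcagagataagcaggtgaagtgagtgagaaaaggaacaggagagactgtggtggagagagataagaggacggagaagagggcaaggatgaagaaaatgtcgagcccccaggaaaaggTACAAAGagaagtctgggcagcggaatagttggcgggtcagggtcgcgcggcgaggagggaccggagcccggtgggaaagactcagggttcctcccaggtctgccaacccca
Axin2 (chr10:94398535-94398784, plus strand): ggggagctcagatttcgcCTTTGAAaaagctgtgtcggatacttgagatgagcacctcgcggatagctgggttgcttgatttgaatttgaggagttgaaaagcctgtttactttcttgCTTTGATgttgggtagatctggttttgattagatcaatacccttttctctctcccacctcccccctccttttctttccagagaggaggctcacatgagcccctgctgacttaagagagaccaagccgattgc
Dkk1 (chr1:237798651-237798900, minus strand): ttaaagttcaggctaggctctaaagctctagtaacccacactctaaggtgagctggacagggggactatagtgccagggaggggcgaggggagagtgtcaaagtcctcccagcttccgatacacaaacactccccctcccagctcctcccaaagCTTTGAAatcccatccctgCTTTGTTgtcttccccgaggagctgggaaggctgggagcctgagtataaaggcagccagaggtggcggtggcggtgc
Axin2 held matches starting 232 and 132 bases before its start site, Dkk1 at 96 and 77, and Sfrp5 held 1 at 112. The fourth match, of Wnt8a, started at 140. The Wnt9b window held none of these letters. A match is a description of letters and not a binding site. The windows of the members held a median of 22.0 CG pairs against 5.0 over all windows.

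Of the 46 genes, 26 were well above background on at least 1 array and 20 on none. The share was 50.0% of the members on the PG array, 50.0% on the SMG-labelled array and 52.2% on the SLG array, below the 64.9%, 63.2% and 64.3% of all genes. By role, 8 of 18 ligands, 7 of 10 Frizzled and Lrp receptors, both R-spondin and Lgr genes, 5 of 9 antagonists, 4 of 5 cytoplasmic genes and neither nuclear factor could be read. The 20 genes that could not be read were Wnt1, Wnt2b, Wnt3, Wnt3a, Wnt5a, Wnt7b, Wnt8a, Wnt8b, Wnt9a, Wnt10b, Fzd5, Fzd6, Fzd7, Dkk1, Dkk4, Frzb, Wif1, Axin2, Lef1 and Tcf7, with signals between -6.02 and -3.37. Fzd5 at -3.37 and Wif1 at -3.54, both on the PG array, lay close to the lowest probe called well above background there (-3.43).

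**Figure D1:**
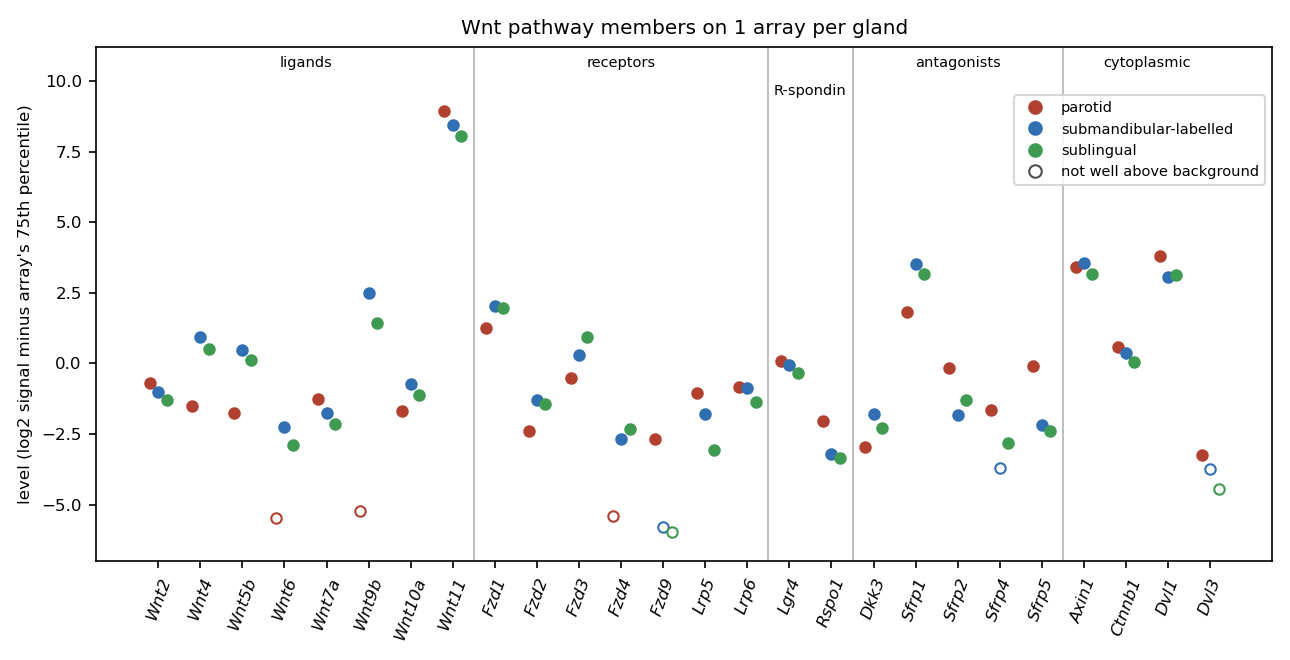
Levels of the 26 genes well above background on at least 1 array, by role; the vertical axis is the log2 signal minus the array's 75th percentile, each point is 1 array and open points are not well above background. Wnt9b has an open PG point at -5.22 and filled points at 2.50 and 1.42 on the other arrays, and levels of different genes rest on different probes and have no order.

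Of 26 member genes compared between the SMG-labelled and PG arrays, 7 stood 2-fold or more above PG (26.9%; 10.9% of all compared genes) and 4 stood 2-fold or more below it (15.4%; 11.3%). Of 26 compared between the SLG and PG arrays, 6 stood 2-fold or more above PG (23.1%; 12.5% of all compared genes) and 6 stood 2-fold or more below it (23.1%; 12.2%). At 4-fold the counts were 3 higher (2.87% of all genes) and 2 lower (2.8%) on the SMG-labelled array, and 2 higher (3.04%) and 2 lower (2.82%) on the SLG array. The median difference of the compared members from PG was -0.07 and -0.45, against 0.10 and 0.06 over all compared genes. A gene read on only 1 side of a comparison can count in only 1 direction, which held for 6 members on SMG-labelled and 5 on SLG. Over the 20 and 21 members read on both arrays the median difference from PG was -0.07 and -0.53. Both comparisons share the PG array. With each array centred on its median, which raises every difference from PG, the median difference on SMG-labelled turned to 0.24 and the splits were 11 higher and 3 lower and 7 higher and 3 lower. With normexp background correction they were 4 and 1 and 5 and 1.

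Of 8 compared ligands, 4 stood 2-fold or more above PG on the SMG-labelled array and 3 on SLG, and none stood 2-fold below it on either. Of all compared genes, 10.9% and 12.5% stood 2-fold or more above PG on these arrays, and 11.3% and 12.2% below it. Of the 8 ligands, 2 (Wnt9b and Wnt6) were not read on PG and could only count as higher. Over the 6 ligands read on both arrays the median difference from PG was 0.33 on SMG-labelled and -0.03 on SLG, beside 0.13 and 0.09 over all genes. Wnt9b, an inducer of kidney tubules in the embryo, was the member furthest above the PG level. Its signal was not well above background on the PG array (-5.22), and its level was 2.50 on the SMG-labelled and 1.42 on the SLG array. The excess over PG was thus at least 61.2-fold on SMG-labelled and at least 28.9-fold on SLG. The 2 arrays that carried it also differed from each other, with the SLG level 2.12-fold lower (a difference of -1.08 with a spot error of 0.20). The Wnt9b probe lay on chromosome 10 from 92883857 to 92883916 in rn4, the build of the files, and no annotation of that build was used to place it in an exon.

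Wnt4, which acts in kidney and mammary development, was at -1.53 on PG, 0.95 on the SMG-labelled and 0.51 on the SLG array. That is 5.54-fold higher and 4.10-fold higher than PG, with differences of 2.47 and 2.03 (spot error 0.23 for each). Wnt5b, a close relative of Wnt5a, was at -1.77, 0.48 and 0.11, which is 4.77-fold and 3.69-fold higher than PG. Both genes thus lay low on PG and differed by 0.44 and 0.37 between the other arrays. A second Wnt5b probe was not well above background on the PG array (-3.92) and read -3.43 and -3.33 on the others.

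Wnt6, known from the forming kidney and somites, was not well above background on PG (-5.47) and was at -2.25 on the SMG-labelled and -2.90 on the SLG array. The excess over PG was at least 2.27-fold on SMG-labelled and at least 1.45-fold on SLG. Wnt10a, a ligand of tooth and hair development, was at -1.68, -0.71 and -1.14, 1.95-fold and 1.45-fold above PG. A second Wnt10a probe was not well above background on any array. Wnt2, a ligand of lung development, was at -0.69, -1.0 and -1.29, and Wnt7a, a limb patterning signal, at -1.24, -1.76 and -2.14. Both lay within 2-fold of PG, and the Wnt2 difference between SMG-labelled and PG had no settled sign (-0.31, and 0.00 with median centring). Each rests on its brightest probe, with 1 further Wnt2 probe and 2 further Wnt7a probes not well above background on any array.

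Wnt11, a ligand of cell movement and kidney branching, gave bright signals on every array. Its levels were 8.93 on PG, 8.44 on the SMG-labelled and 8.05 on the SLG array, from signals of 91000, 79200 and 64700. The PG level was 1.41-fold and 1.85-fold above the others. With quantile normalization the difference of SMG-labelled from PG shrank from -0.49 to -0.04. A second probe, which the files describe as Wnt-11 protein but name by a transcript identifier and which the rule therefore leaves out, was not well above background on any array (-5.35, -3.43 and -3.94). It lay 15.8 kb from the first on chromosome 1.

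Several Wnt genes stand as neighbours in the genome, and in some pairs only 1 of the neighbours was read on an array. The Wnt9b and Wnt3 probes lay 75.8 kb apart on chromosome 10 (rn4), and Wnt3 was not well above background on any array. Wnt6 and Wnt10a probes lay 21.9 kb apart on chromosome 9. There, Wnt10a was read on all arrays and Wnt6 on all but the PG array. Wnt1 and Wnt10b, 16.7 kb apart on chromosome 7, and Wnt3a and Wnt9a, 55.7 kb apart on chromosome 10, were not well above background anywhere.

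**Figure D2:**
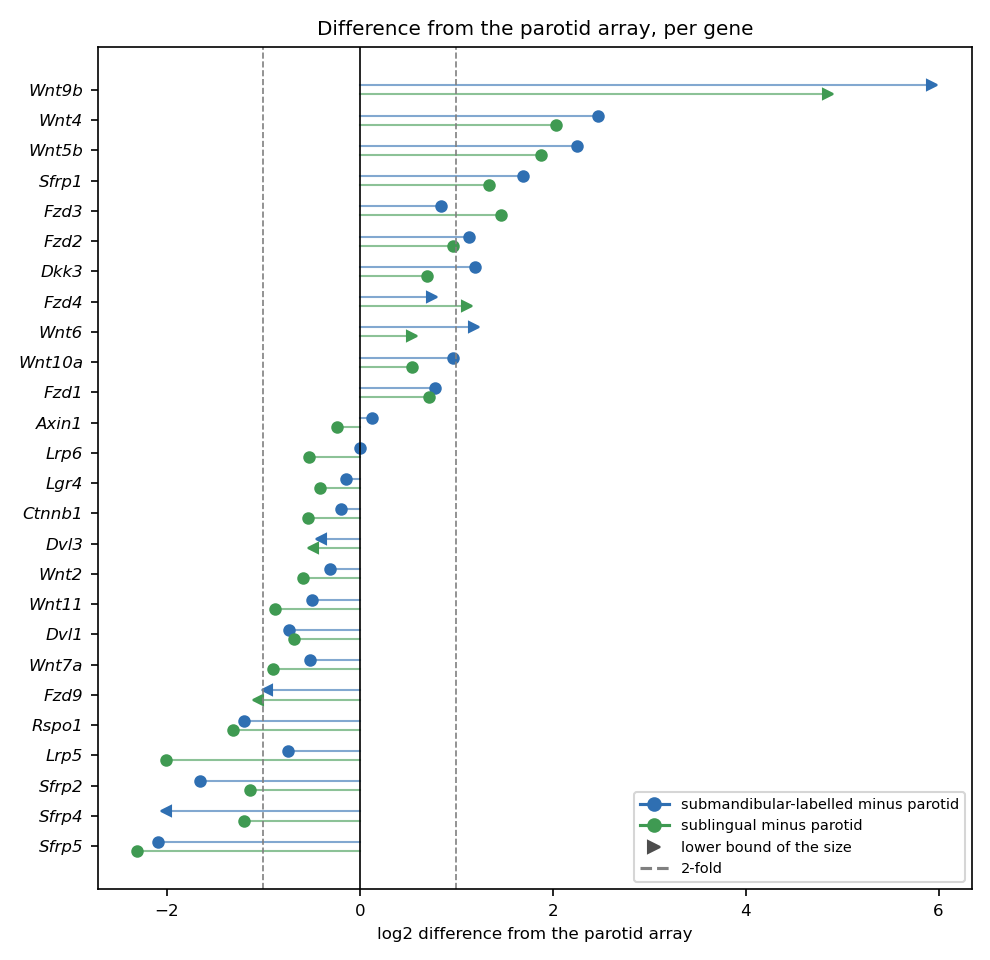
Log2 difference of each compared gene from the PG array, for the SMG-labelled and the SLG array; triangles are lower bounds of the size and dashed lines mark 2-fold. Wnt9b, Wnt4, Wnt5b and Sfrp1 lie beyond 2-fold on the upper side for both arrays, and Sfrp5, Sfrp4, Sfrp2 and Rspo1 on the lower side.

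Of 7 compared receptors, 1 stood 2-fold or more above PG on SMG-labelled, and 2 above and 2 below it on SLG. The shares of all compared genes were 10.9% above and 11.3% below on SMG-labelled, and 12.5% and 12.2% on SLG. Fzd3, which works in planar polarity and axon guidance, was at -0.53 on PG, 0.31 on the SMG-labelled and 0.93 on the SLG array. It was 1.79-fold and 2.75-fold higher than on PG, differences of 0.84 and 1.46 with a spot error of 0.21 for each. Fzd2 was at -2.41, -1.28 and -1.44, 2.19-fold and 1.95-fold higher. Fzd1 was at 1.26, 2.03 and 1.97, 1.72-fold and 1.64-fold higher. For all 3 genes the PG array held the lowest level.

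Fzd4, the receptor of norrin and of Wnt signals in retinal vessels, was not well above background on PG (-5.40) and read -2.69 and -2.32 on the others. The excess over PG was at least 1.68-fold on SMG-labelled and at least 2.17-fold on SLG. Fzd9 had the opposite pattern. It was at -2.68 on PG and not well above background on the SMG-labelled (-5.78) and SLG (-5.96) arrays, so PG exceeded them by at least 1.95-fold and by at least 2.08-fold. Lrp5, a co-receptor known from bone mass, was at -1.05, -1.79 and -3.06. It was 1.68-fold lower on the SMG-labelled and 4.03-fold lower on the SLG than on the PG array, and 2.41-fold lower on the SLG than on the SMG-labelled array (-1.27, spot error 0.31). Lrp6, its partner, was at -0.85, -0.86 and -1.38 on its brightest probe, within 1.45-fold in every comparison. Its second probe was not well above background on PG and read -2.73 on SMG-labelled and -3.41 on SLG, at least 1.63-fold above PG on SMG-labelled and 1.61-fold lower on SLG than on SMG-labelled.

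The R-spondin axis had 2 member genes. Rspo1, an R-spondin known from gut stem cells and ovary formation, was at -2.02 on PG, -3.22 on the SMG-labelled and -3.33 on the SLG array, 2.29-fold and 2.48-fold lower than on PG. Lgr4, a receptor of R-spondins, was at 0.08, -0.06 and -0.34, within 1.33-fold of PG. Through their RefSeq match, 5 probes outside the rule could be added. Lgr5, the stem cell receptor of R-spondins, read -2.92, -3.28 and -3.24, and the Rspo2 and Rspo3 probes were not well above background on any array.

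The secreted antagonists divided by gene: of 5 compared, 2 stood 2-fold or more above PG and 3 below it on SMG-labelled, and 1 and 3 on SLG. Over all compared genes the shares were 10.9% above and 11.3% below on SMG-labelled, and 12.5% and 12.2% on SLG. Sfrp1, the founding secreted Frizzled-related protein, was at 1.82 on PG, 3.52 on the SMG-labelled and 3.17 on the SLG array, 3.23-fold and 2.53-fold higher than on PG. Dkk3, a divergent Dickkopf protein, was at -2.97, -1.78 and -2.28, 2.28-fold and 1.62-fold higher. Sfrp5 was at -0.09, -2.18 and -2.39, 4.26-fold and 4.95-fold lower than on PG. Sfrp1 and Sfrp5 encode proteins of 1 subfamily, and their differences from PG had opposite signs: 1.69 and 1.34 for Sfrp1, and -2.09 and -2.31 for Sfrp5.

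Sfrp2, a product of connective tissue cells in many organs, was at -0.17 on PG, -1.83 on the SMG-labelled and -1.31 on the SLG array, 3.16-fold and 2.20-fold lower. All 3 Sfrp2 probes had their highest level on the PG array. Their differences from PG were -1.66, -1.41 and, as a bound, -1.57 on the SMG-labelled array and -1.14, -1.33 and -1.12 on the SLG array. Sfrp4 was at -1.63, not well above background on the SMG-labelled array (-3.71) and at -2.83 on the SLG array, below PG by at least 4.03-fold and by 2.30-fold. Its 2 further probes were not well above background on any array. Sfrp5's second probe read -2.90 on PG and was not well above background elsewhere.

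**Figure D3:**
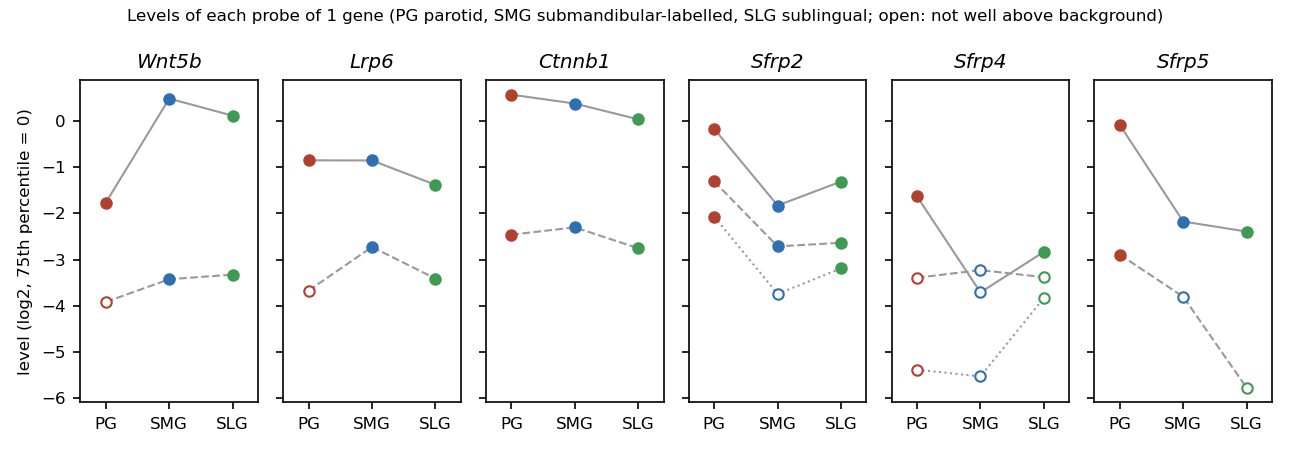
Levels of each probe of 6 genes that have several probes, on the PG, SMG-labelled (SMG) and SLG arrays; lines join 1 probe and open points are not well above background. The 3 Sfrp2 lines all start highest on the PG array, while the Sfrp4 decline is carried by 1 probe.

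Of the cytoplasmic members, the 3 read on every array, Ctnnb1, Axin1 and Dvl1, lay within 2-fold across the arrays. Ctnnb1, which encodes beta-catenin, was at 0.57 on PG, 0.38 on the SMG-labelled and 0.04 on the SLG array. Its second probe was spotted 10 times per array and gave -2.46 ± 0.16 (SD, 7 spots left after outlier flags), -2.30 ± 0.22 (10 spots) and -2.76 ± 0.26 (10 spots), the only repeat measurement among the members. On both probes the SLG array was lowest. Axin1, the scaffold of the destruction complex, was at 3.41, 3.54 and 3.18, and Dvl1, a Dishevelled gene, at 3.81, 3.07 and 3.13. Dvl3 was at -3.25 on PG and not well above background on the other arrays, below PG by at least 1.32-fold on SMG-labelled and by at least 1.41-fold on SLG.

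In the nucleus neither member could be read. Outside the rule, the brighter of 2 probes matched to Tcf7l2, a main partner of beta-catenin in epithelia, read -0.28, -0.84 and -1.26. Axin2 and Lef1, which beta-catenin often induces, were not well above background on any array.

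Between the SLG and SMG-labelled arrays, none of 24 compared members was 2-fold higher (0.966% of all compared genes) and 2, Wnt9b and Lrp5, stood 2-fold or more lower on SLG (8.33%; 0.574% of all compared genes). The median difference was -0.35 against -0.04 over all compared genes, and 19 of the 24 were lower on the SLG array, beside 5731 of 10456 of all compared genes. On their brightest probes all 8 compared ligands were lower there, with a median of -0.41. The second Wnt5b probe was 0.10 higher on SLG than on SMG-labelled. These are descriptions of 1 array each.

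**Figure D4:**
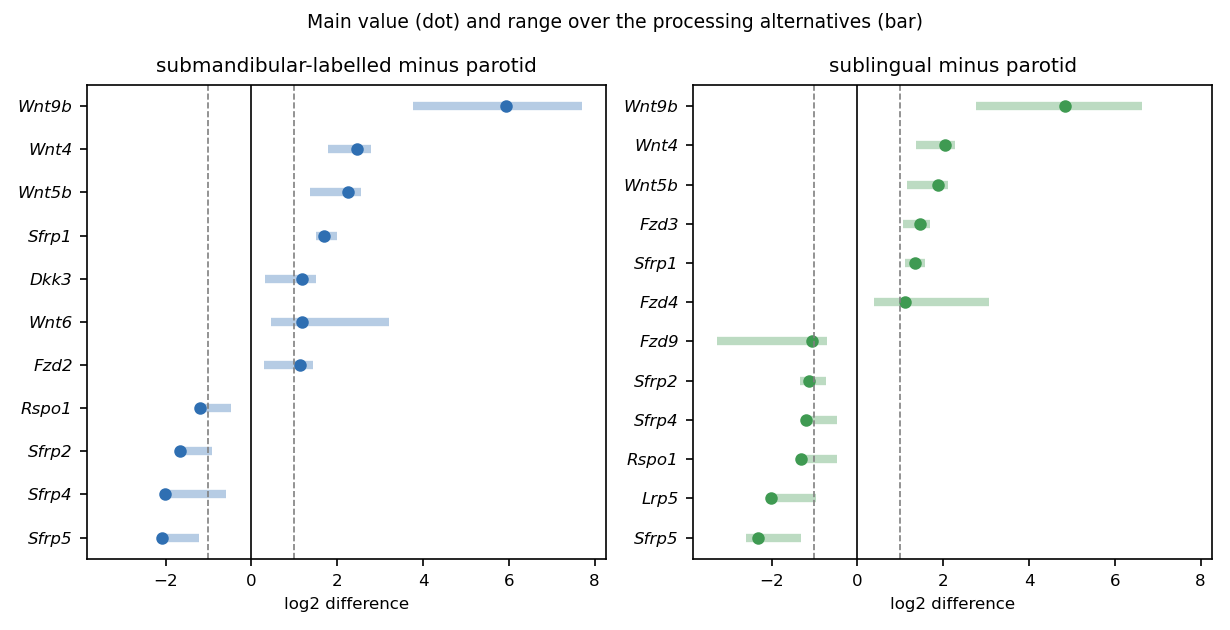
Members at least 2-fold apart from the PG array, with the main log2 difference as a dot and the range over the processing alternatives as a bar; dashed lines mark 2-fold. The bars of Wnt9b, Wnt4, Wnt5b, Sfrp1 and Sfrp5 stay beyond 2-fold for both arrays, as does that of Fzd3 for SLG, and those of Dkk3, Fzd2, Wnt6, Fzd4, Fzd9, Lrp5, Rspo1, Sfrp2 and Sfrp4 reach inside it.

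All 11 members that stood 2-fold or more from PG on the SMG-labelled array, and all 12 on the SLG array, kept their direction under the 7 alternatives that could be run for values, where they gave a value. Of these, 5 and 6 also stayed 2-fold or more apart throughout: Wnt9b, Wnt4, Wnt5b, Sfrp1 and Sfrp5 in both, and Fzd3 in the SLG comparison. Normexp correction, whose offset of 50 shrinks differences between dim signals, took each of the rest below 2-fold. With it the differences on the SMG-labelled array were 0.32 for Dkk3, 0.29 for Fzd2, 0.47 for Wnt6, -0.49 for Rspo1, -0.92 for Sfrp2 and -0.60 for Sfrp4. On the SLG array they were 0.38 for Fzd4, -0.72 for Fzd9, -0.96 for Lrp5, -0.48 for Rspo1, -0.73 for Sfrp2 and -0.49 for Sfrp4. The Lrp5 difference between SLG and SMG-labelled became -0.60. Settings other than normexp also took some members below 2-fold. On SMG-labelled, Rspo1 stayed 2-fold or more apart in 4 of 7 alternatives. On SLG, Fzd9 did so in 3 of 6 that gave a value, Sfrp4 in 4 of 6 and Sfrp2 in 5 of 7. Not all alternatives can move a value. For a member with a single probe, the median of probes returns the main value, and so do both filters where both arrays are read. The deposited table differs only by a divisor per array. The 4 that kept Rspo1 are these, while quantile normalization, median centring and normexp each took it below 2-fold.

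Several marker lists of other cell types also differed between PG and the other arrays. Of all compared genes, 10.9% on SMG-labelled and 12.5% on SLG stood 2-fold or more above PG, and 11.3% and 12.2% below it. The members Sfrp2, Sfrp4, Sfrp5 and Rspo1 stood 2-fold or more below PG on both SMG-labelled and SLG. So did all 8 serous markers, 3 of 4 compared immune markers and 5 of 9 compared fibroblast markers. The fibroblast markers Dcn, Lum, Pdgfra and Pdgfrb lay below PG within 2-fold. The fibroblast markers summed to 211 on PG, 73.9 on the SMG-labelled and 83.8 on the SLG array, mostly Col1a1 and Col1a2. Thy1 was not well above background on any. Of 6 compared myoepithelial and basal markers, 6 stood 2-fold or more above PG on SMG-labelled and 5 on SLG, with summed levels of 26.8, 81.0 and 65.9 and Oxtr not read on any array. Endothelial markers summed to 18.8, 10.4 and 12.2 and immune markers to 15.4, 5.78 and 6.09, and the immune markers Cd3e and Cd4 were not well above background anywhere. Both compared adipocyte markers, Adipoq and Fabp4, stood 2-fold or more below PG on SMG-labelled and SLG (summed levels 2.55, 0.77 and 0.85), with Plin1, Lep and Cidec not read on any array. Of 7 compared genes on the duct list, 3 stood 2-fold or more above PG and 1, Slc12a2, below it on both arrays. Slc12a2 and Kcnn4, which lay below PG within 2-fold, are not specific to ducts, so the list does not stand for ducts alone. Its sums of 643, 1008 and 945 were mostly Krt18. Of 5 compared Schwann cell markers, 3 on SMG-labelled and 2 on SLG stood 2-fold or more below PG and none above it, and the sums of 27.2, 12.0 and 9.16 were mostly Sox10. Granular duct markers summed to 476, 542 and 420. The part of any of these cells in the results on Wnt genes was not tested. In tissue RNA, fewer cells of a type and less RNA per cell cannot be told apart.

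The rest of the pathway was covered by lists of 85 further genes with a matched probe, while Notum, Znrf3, Vangl1, Nlk and others were not analysed here. Of 64 compared between the SMG-labelled and PG arrays, 10 stood 2-fold or more above PG and 10 below, and of 67 compared between the SLG and PG arrays 8 and 8. These shares, 15.6% and 15.6% and 11.9% and 11.9%, stood beside 10.9% and 11.3% and 12.5% and 12.2% of all compared genes. In ligand secretion and handling, Porcn, the acyltransferase that attaches the lipid to Wnt proteins, was at 6.42 on PG, 3.15 on the SMG-labelled and 2.98 on the SLG array, 9.65-fold and 10.8-fold lower than on PG. Gpc3, a glypican of the cell surface, was at -2.70, 1.01 and 0.93, 13.1-fold and 12.4-fold higher. The 3 remaining compared genes of this list lay within 2-fold of PG.

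Among receptor partners, 1 of 5 compared genes stood 2-fold or more above PG and 1 below it, on SMG-labelled and on SLG alike. Shares of all compared genes were 10.9% above and 11.3% below on SMG-labelled, and 12.5% and 12.2% on SLG. Tspan12, a partner of Fzd4 in norrin signalling, was at 1.21, 2.97 and 3.35, 3.40-fold and 4.42-fold higher. Rnf43, a ubiquitin ligase that removes Frizzled receptors, was at -1.46, -2.55 and -2.80, 2.14-fold and 2.53-fold lower. Of the cytoplasmic steps, 3 of 16 compared stood 2-fold or more above PG on SMG-labelled and 1 of 17 on SLG, and none below it. Gsk3a, a kinase of the destruction complex, was at -2.97, -1.83 and -2.08, 2.21-fold and 1.85-fold above PG. Of the casein kinase genes, which phosphorylate several parts of the pathway, Csnk1g3 was at -2.41, -1.35 and -1.33 and Csnk1d at -0.41, 0.62 and 0.14.

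Of 17 nuclear genes, 2 stood 2-fold or more above PG and 2 below it on SMG-labelled, and 2 and 1 on SLG. On SMG-labelled that is 11.8% and 11.8%, beside 10.9% and 11.3% of all compared genes. On SLG it is 11.8% and 5.88%, beside 12.5% and 12.2%. Tle4, a co-repressor of TCF factors, was at -2.77 on PG, not well above background on the SMG-labelled array (-5.81) and at -0.10 on the SLG array, which is 6.37-fold above PG and at least 11.7-fold above SMG-labelled. Tle1, another co-repressor, was at 0.47, -0.64 and -1.05, 2.17-fold and 2.87-fold below PG. Tle3 was at 0.41, 1.59 and 1.29, and Cby1, an antagonist of beta-catenin, at -2.38, -0.88 and -1.0. In planar polarity, 2 of 11 compared stood 2-fold or more above PG (18.2%) and 1 below it (9.09%), on each of the arrays. Rhoa, a small GTPase with many other roles, was at 0.51, 3.12 and 4.46, 6.11-fold and 15.5-fold above PG. Daam1, a formin that binds Dishevelled, was at 0.92, 2.38 and 2.25 on its brightest probe, and its relative Daam2 at -1.78, -2.80 and -2.37. A second Daam1 probe read -2.25, -1.63 and -1.78, only 1.54-fold and 1.39-fold above PG. Rac1, a further small GTPase, was at 3.87, 3.25 and 2.56.

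Of 12 compared genes that beta-catenin often induces in other tissues, 1 stood 2-fold or more above PG and 6 below it on SMG-labelled (median -0.86), beside 10.9% and 11.3% of all compared genes (median 0.10). Of 14 compared on SLG, 1 stood above and 5 below (median -0.48), beside 12.5% and 12.2% (median 0.06). The gene above PG was Ccnd1, a cyclin of the cell cycle, on SMG-labelled (2.16-fold) and Id2, an inhibitor of transcription factors, on SLG (2.17-fold), both named after their values were seen. Myc, a growth regulator, was at 2.77, -1.02 and -0.92, 13.8-fold and 12.9-fold lower than on PG. Ascl2, a factor of intestinal stem cells, was at 3.26, 0.00 and -0.26, 9.57-fold and 11.4-fold lower. Ccn5, a matricellular gene, was at 1.40, -0.73 and -0.88, and Ephb3, an ephrin receptor, at -1.19, -2.19 and -2.96. Each of these genes has other regulators, and the list was not tested as a set.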

How the data were processed

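Per the labels' protocols, gland tissue went into a solution that preserves RNA, and 500 ng of column-purified total RNA was amplified and labelled. The authors deposited scanner output whose intensity values came, per the file headers, from Agilent Feature Extraction 10.1.1.1 (protocol GE1-v5_10_Apr08, array design 014879, coordinates in rn4), with spatial and multiplicative detrending on and low signals replaced by surrogates. The authors' value table gives linear ratios. Against the scanner values each array was scaled by a single divisor (190, 236 and 250; column medians 0.152, 0.122 and 0.128), so its scale and direction are settled, and no gene was centred. The other deposited columns are flags.

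Spots with an outlier flag (68, 79 and 73) and controls were left out, spots of 1 probe were averaged as log2 values, and each array's 75th percentile (signals of 186, 228 and 244) was subtracted. A probe counts as well above background where at least 0.5 of its unflagged spots carry that flag. The bound of a dim side is the higher of its own level and the lowest probe well above background on that array (-3.43, -3.65 and -3.74). Other genes were named through RefSeq (20470 probes, 15994 genes; assembly GRCr8, names only), and each is represented by its brightest probe. Over genes read on both arrays the median difference was 0.13 and 0.09 from PG for the SMG-labelled and SLG arrays, and 0.44 and 0.33 after centring on the median. Alternatives were quantile normalization, median centring, normexp (offset 50, limma 3.58.1, R 4.3.3), the deposited table, the median of a gene's probes, other filters and a 4-fold threshold. Python 3.11.15, numpy 2.4.6, pandas 2.3.3 and matplotlib 3.10.9 were used, and the counting was tested on simulated data. Members and lists were chosen with earlier results of these data known. The text describes every member read on an array, names the rest, and names up to 4 genes per further list by size of difference from PG (2-fold or more). Tcf7l2, Lgr5, Rspo2, Rspo3 and the second Wnt-11 probe were added after their values were seen.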

Additional observations from a re-analysis of the deposited data

How the results depend on the processing

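No paired analysis was possible because each gland has 1 array. Values that leave out a replicate could not be made for the same reason, and dim signals limit the 20 members read on no array and every bound. Counts are given as higher and lower on the first-named array. For the members, normexp correction changed the SMG-labelled minus PG counts from 7 and 4 to 4 and 1, the lower count of SLG minus PG from 6 to 1 and that of SLG minus SMG-labelled from 2 to 1. Centring on the median gave 11 higher for SMG-labelled minus PG and 3 lower for SLG minus PG. At 4-fold the counts were 3 and 2 for SMG-labelled minus PG, 2 and 2 for SLG minus PG and 0 lower for SLG minus SMG-labelled. Without a filter on dim probes, 9 were lower in SMG-labelled minus PG and 4 higher in SLG minus SMG-labelled. The positive and significant flag in place of the stricter one read 36 members on the PG array against 23. The median SLG minus PG difference of -0.45 became -0.21 with median centring, -0.32 with normexp, -0.18 with the median of a gene's probes and -0.26 without the filter. That of SMG-labelled minus PG turned from -0.07 to 0.24 with median centring and 0.26 with the median of probes, so it has no settled sign. That of SLG minus SMG-labelled went from -0.35 to -0.18 without the filter.

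For the further pathway genes, SMG-labelled minus PG gave 5 higher and 5 lower with normexp against 10 and 10, 6 lower with quantile normalization, 4 lower with median centring, 16 lower without the filter, and 2 and 4 at 4-fold. SLG minus PG gave 4 and 4 at 4-fold against 8 and 8. SLG minus SMG-labelled gave 2 higher and 0 lower. It gave 1 higher with the median of probes, at 4-fold or with both arrays above background, and 7 higher and 1 lower without the filter. No called difference of a member changed sign. The causes were not tested, except that a stricter threshold or filter leaves fewer genes by construction.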

Other observations

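Of 10 member genes with several probes, 5 could be compared with PG on at least 2 probes, and 3 of these on the SMG-labelled array and 4 on the SLG array had the same direction on every probe. The exceptions on the SMG-labelled array were Ctnnb1 (-0.19 and 0.16) and Lrp6 (0.00 and at least 0.71), and on the SLG array Lrp6 (-0.53 and at least 0.02). The direction of a bound is fixed by which side is dim, so it is no check of direction. The second probes of Wnt5b (bounds of 0.01 on SMG-labelled and 0.11 on SLG) and Sfrp5 (-0.75 and -0.84) gave only bounds. Between SLG and SMG-labelled, 4 genes could be compared on at least 2 probes, and 3 had the same direction on every probe. The exception was Wnt5b (-0.37 and 0.10). The bright Wnt11 probe and the dim probe described as a Wnt-11 fragment 15.8 kb away could not be reconciled from the files, which hold no probe sequences. A probe described as similar to Dishevelled 2, outside the rule because the files name it by an accession, read 4.87 on PG, 4.28 on the SMG-labelled and 3.60 on the SLG array.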
